A study of Drosophila melanogaster with 6 samples.

Results

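The odorant-binding protein (Obp) genes of Drosophila melanogaster were followed between an old age group (45 days) and a young age group (3 days) of whole flies. Members were taken by symbol: a probe set belonged to the family if any gene name given for it began with Obp and a number. The rule found 55 probe sets for 51 genes among the 18769 probe sets (14535 gene names) tested, and it used no measured value. Each group had 3 arrays, and all flies were of the isogenic y(1), w67c23(2) stock and were kept at 20 °C, with no treatment other than age. According to the labels, an RNA sample pooled 100 females and 100 males. Samples are called Old4, Old5, Old6, Young1, Young2 and Young3 after the columns of the deposited table, in which the old samples carry other numbers than in the labels. The study's methods describe flies of a replicate being taken at 3 and then at 45 days, so old and young samples of a replicate may share a culture, but which columns belong together is not given in the sources used here. The p-values below measure the spread between these pooled samples and leave any such pairing out, and an exact permutation test of 3 against 3 could not give a 2-sided p under 0.1.

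Odorant-binding proteins are small secreted proteins held together by disulfide bridges between conserved cysteines. Support cells of olfactory and taste hairs release them into the fluid around the sensory neurons, where they bind hydrophobic odorants and pheromones. Members of the family are also made outside the sense organs, for example in the fat body, in glia and in the male reproductive tract, from which some are passed to the female with the seminal fluid. Several lie in tight genomic clusters, and the number in each symbol follows the position of the gene on the chromosome map.

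Values are log2 expression values after GCRMA, a normalization that uses probe sequences to estimate the background of each array. A difference is the old mean minus the young mean on this scale, and a call needed more than a 2-fold difference together with a limma p under 0.05 and an FDR (Benjamini-Hochberg, over all probe sets tested) under 0.15. Array medians differed by 0.02 at most, but 56% of all values were under log2 4, so the medians say little about brighter probe sets. Over all probe sets tested, 3.45% were called higher in old flies and 2.96% were called lower. A whole-fly sample cannot tell fewer cells of a type from less RNA per cell.

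The labelled mix of sexes was set against marker genes before the family was examined. Of 22 probe sets for male accessory gland genes, 21 stayed between 1.52 and 3.03 in all 6 samples. Among these was SP, the gene of the sex peptide, which is transferred at mating (2.34 to 2.37 over the 6 samples). The exception was Acp95EF, which averaged 12.95 in the old and 12.97 in the young age group. Of 10 testis probe sets, 7 stayed between 1.93 and 2.40, and the others belonged to bol (1 of its probe sets was called lower, with a difference of -1.01 on the log2 scale) and twe. The dosage compensation gene msl-2, whose protein is made in males, was detected (7.29 to 7.83 in old and 7.34 to 7.76 in young samples) and not called. As that limit is to the protein, the RNA level of msl-2 was not read as a sign of either sex. The female yolk protein gene Yp1 stood at 14.43, 14.34 and 14.45 in old samples and at 14.66, 14.63 and 14.56 in young samples. The arrays thus gave no signal for most accessory gland and testis markers in either group, while the 2 probe sets of the ejaculatory bulb and duct list (Est-6 and Gld) reached log2 4. Values at the low end of the scale do not show that a tissue was absent, since the antennal gene Orco also lay there. The labels give both sexes, while the results text of the study speaks of female flies. The sexes of the flies could not be settled from the files used here.

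Genes known from the antenna gave mixed signals. Of 10 Obp probe sets of antennal hairs (lush not among them), 6 reached log2 4 in at least 1 sample, and the antennal genes Snmp1 and Os-C also did so. Orco, the co-receptor of the odorant receptors, lay between 1.84 and 1.86 in all samples, and 66 of 67 odorant receptor probe sets were under log2 4 everywhere. The pheromone-binding protein gene lush, itself a member of the family under another name (Obp76a) and so outside the rule, was at 2.60, 2.62 and 2.63 in old samples and at 2.56, 2.65 and 2.62 in young samples.

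Of the 55 Obp probe sets, 21 reached log2 4 in at least 1 sample and 34 did not. This is 38.2%, against 45.8% of all probe sets tested. The probe sets that reached the level stand for 21 genes, if the probe set shared by Obp57b and Obp57c is counted for both. Between both parts of the family lay a gap: just inside the level was Obp56h with a highest value of 5.65, and just outside it was Obp57e with a highest value of 2.58. The 34 dim probe sets ran from 1.69 to 2.58, none was called, and their largest difference in size was 0.05.

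**Figure D1:**
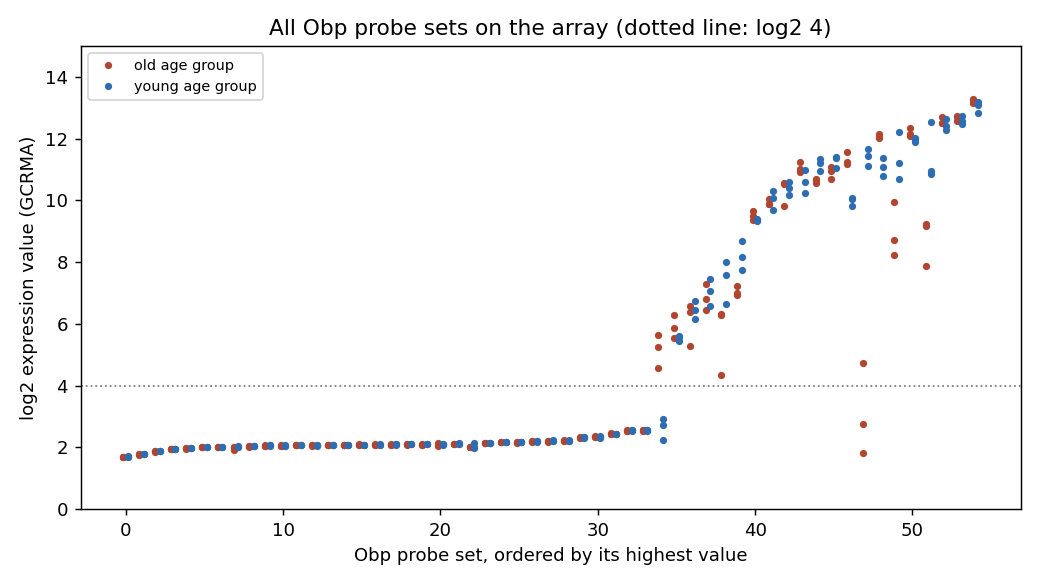
All 55 Obp probe sets, ordered along the horizontal axis by their highest value; the vertical axis is the log2 expression value after GCRMA, points are single samples of the old (red) and the young (blue) age group, and the dotted line marks log2 4. The 34 probe sets on the left lie between 1.69 and 2.58 in every sample, and the other 21 reach 5.65 or more in at least 1 sample.

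No probe set of 30 genes reached the level. These were Obp8a, Obp19b, Obp22a, Obp28a, Obp46a, Obp47a, Obp47b, Obp50a to Obp50e, Obp51a, Obp56b, Obp56c, Obp56f, Obp56i, Obp57d, Obp57e, Obp58b to Obp58d, Obp59a, Obp73a, Obp83cd, Obp83ef, Obp83g, Obp85a, Obp93a and Obp99d. Obp28a, an abundant protein of antennal hairs, lay between 1.92 and 2.01 in old samples and between 2.01 and 2.04 in young samples. Obp59a, which is needed in the antenna to sense humidity, was dim in both of its probe sets. For Obp19a and Obp19c, there was a dim probe set beside a bright one: that of Obp19a lay between 2.06 and 2.14, and that of Obp19c, which has no FlyBase identifier in the table, lay between 2.18 and 2.23. Obp57d shares both of its probe sets with the cuticle gene Cpr57A, and Obp50b shares both with Obp50c, so their signals cannot be told apart.

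Across the family, 3 probe sets were called higher and 4 lower in old flies. The higher ones were Obp56h, Obp18a and Obp49a, and the lower ones were Obp19c, Obp99b, Obp99a and Obp83a. All 7 are among the 21 probe sets that reached log2 4. Among all 8593 probe sets on the array that did so, 7.38% were called higher and 6.45% lower. Obp56h passed the level through its old samples alone, and such a probe set had to differ between the groups, so these counts describe the family and support no statement about it. Old and young values lay apart without overlap in 10 of the 21, against 55% of all probe sets that reached the level. The median difference of the 21 was -0.08, with 10 positive and 11 negative, and that of all probe sets reaching log2 4 was 0.04. Without Old5, Young2 or Young3 the median of the family was above 0. Replicates were spread more widely in the family than on the array: the median SD was 0.20 in the old and 0.28 in the young age group, against 0.08 and 0.13 over all probe sets reaching log2 4.

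**Figure D2:**
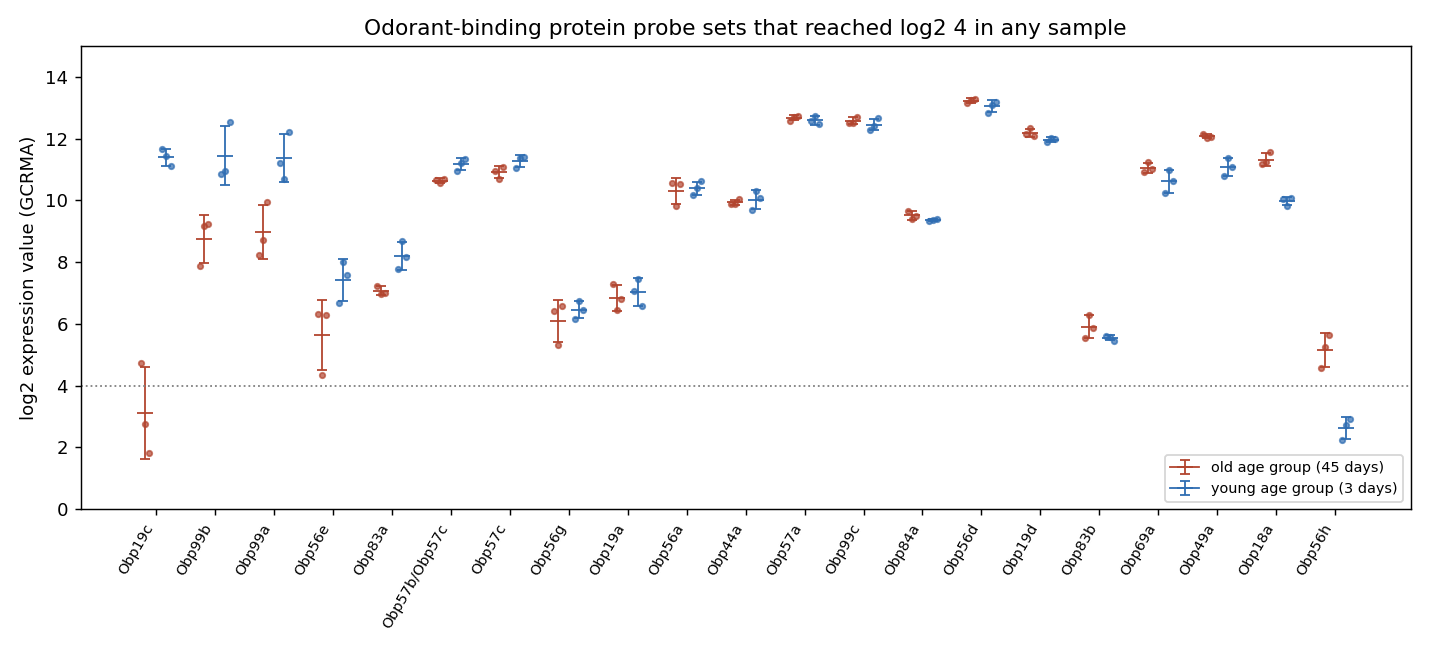
Log2 expression values after GCRMA (vertical axis) of the 21 Obp probe sets that reached log2 4, ordered by the difference between the groups; points are samples (Old4 to Old6 and Young1 to Young3, left to right), dashes are means and bars are the SD of 3 samples, with the old age group in red left of the young age group in blue. Obp19c at the left end has a mean of 3.10 in the old and 11.40 in the young age group, and Obp56h at the right end 5.16 in the old and 2.62 in the young age group.

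Obp19c (FBgn0031111) showed the largest difference of the family. Its brighter probe set was at 4.73, 2.77 and 1.81 in Old4, Old5 and Old6, and at 11.65, 11.45 and 11.10 in Young1, Young2 and Young3. All young samples were high and close together, whereas the old samples ran down into the range of the dim probe sets. The means were 3.10 ± 1.49 in the old and 11.40 ± 0.28 in the young age group (SD, n = 3 each), a difference of -8.30 (SE 0.80, FDR 0.00553, limma). Its size depends on the low end of the scale: the fold difference was 315 as deposited, 143 with values under log2 4 raised to 4, 42.2 with values under log2 6 raised to 6, 553 without Old4 and 201 without Old6. Obp19c was called under each of these.

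Beside Obp19c, a pair of eggshell genes had the same order among the old samples, while the yolk protein genes Yp1 and Yp3 did not. The vitelline membrane gene Vm26Ab was at 11.31, 8.47 and 5.81 in Old4, Old5 and Old6 and at 12.62, 12.92 and 13.06 in the young samples, and the chorion gene Cp36 at 13.43, 12.01 and 1.91 in the old and 14.39, 14.36 and 14.31 in the young samples. Of the 6 probe sets of the female reproductive list, 5 reached log2 4, all 5 had lower values in every old sample than in any young sample, and none was called. Yp1 and Yp3 were highest in Old6 and lowest in Old5 among old samples, and Yp2 was highest in Old4. The log2 of the summed linear values of this list was 15.92, 15.49 and 15.52 in Old4, Old5 and Old6 and ran from 16.46 to 16.48 in young samples. The part of these changes in the result for Obp19c was not tested.

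Obp19c lies between Obp19b and Obp19d, with Obp19a on the far side of Obp19b and no other gene starting in this cluster in RefSeq's Release 6 annotation. Obp19d, a protein of antennal and taste hairs, averaged 12.18 ± 0.13 in the old and 11.97 ± 0.07 in the young age group. Its difference of 0.21 (95% interval 0.01 to 0.42) missed the criteria with an FDR of 0.178 in limma, and its probe set is, by its suffix, of a type whose probes can match more than 1 gene. Obp19a was at 7.29, 6.45 and 6.80 in old and at 7.06, 7.46 and 6.58 in young samples, which overlap. Its difference was -0.18 (95% interval -1.02 to 0.65), and the sign turned without Old5 or Young2.

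Obp99b and Obp99a were the next lower members. Obp99b (FBgn0039685), which is known for male-biased expression in the fat body of the head and is also named tsx, was at 7.87, 9.17 and 9.22 in Old4, Old5 and Old6 and at 10.84, 10.94 and 12.54 in Young1, Young2 and Young3. No old sample reached the lowest young sample. The means of 8.75 ± 0.77 and 11.44 ± 0.95 (old and young, SD, n = 3 each) gave a difference of -2.69 (SE 0.64, FDR 0.0652, limma), a 6.44-fold fall. Obp99b stayed called whichever sample was left out, with an FDR between 0.0897 and 0.147.

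Obp99a (FBgn0039678) was at 8.24, 8.72 and 9.96 in Old4, Old5 and Old6 and at 11.20, 10.68 and 12.22 in Young1, Young2 and Young3. As for Obp99b, the lowest value belonged to Old4 and the highest to Young3. The difference was -2.40 (SE 0.62, FDR 0.0812, limma), a 5.27-fold fall. The call was lost without Old4 (FDR 0.195), Old5 (0.231), Young1 (0.152) or Young3 (0.164), with the methods' t-test after adjustment (0.155), and with values under log2 4 raised to 4 (0.159) or under log2 6 raised to 6 (0.170). The direction held in each case.

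Some genes of the fat body, Lsp2, Fbp1 and Fbp2 among them, were also highest in Young3. Lsp2, a storage protein gene of the larva and the newly emerged adult, was at 10.69, 8.71 and 9.53 in Old4, Old5 and Old6 and at 10.80, 11.14 and 13.60 in the young samples in order. Among old samples Lsp2 was thus highest in Old4, where Obp99a and Obp99b were lowest. Fbp1 and Fbp2, fat body protein genes best known from the larva, stood at 9.13 and 10.56 in Young3, against 7.31 to 8.48 in the other young samples. In the old age group both were between 1.98 and 2.77 and were called lower. Of the 8 probe sets of the fat body list, 2 were called lower and 1, takeout (to), higher. The differences of the list were positive in 3 and negative in 5. The log2 of their summed linear values ran from 15.36 to 15.43 in old samples and was 15.24, 15.39 and 16.02 in Young1, Young2 and Young3. Without Young3, the fall of Obp99b was 2.14 and that of Obp99a 1.97 on the log2 scale. A probe set that lists Fbp1 beside CG5335 stayed between 12.7 and 13.2 and was not called. The part of fat body transcripts in these results was not tested.

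The remaining bright member of that cluster, Obp99c, averaged 12.57 ± 0.11 in the old and 12.45 ± 0.18 in the young age group. Its difference of 0.13 had a 95% interval of -0.16 to 0.42, within a 2-fold difference in either direction. Obp99d was dim. In RefSeq's order the cluster runs Obp99a, Obp99c, Obp99d and Obp99b, with 5, 2 and 1 genes of other kinds starting between neighbours. Obp44a, which is known from glia of the brain, was at 9.94 ± 0.08 in the old and 10.02 ± 0.31 in the young age group. Its difference was -0.08 (95% interval -0.52 to 0.35), and the sign turned without Young2.

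**Figure D3:**
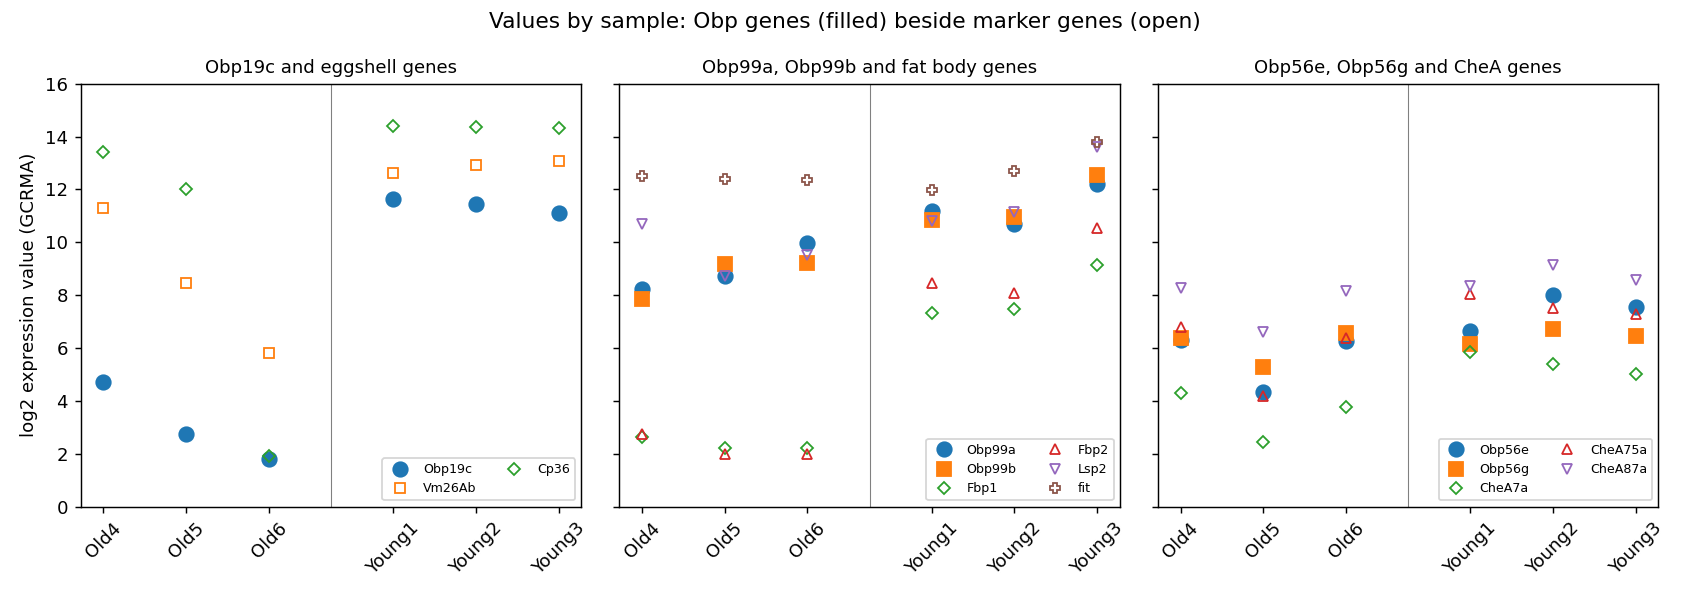
Log2 expression values after GCRMA (vertical axis) by sample (horizontal axis, old age group left of young age group) for Obp genes (filled symbols) beside marker genes (open symbols). The marker genes are some of those on longer lists, whose other members are not drawn. Obp19c, Vm26Ab and Cp36 are highest in Old4 and lowest in Old6 among old samples; Obp99a, Obp99b, Fbp1, Fbp2, Lsp2 and fit are highest in Young3; Obp56e, Obp56g and 3 CheA genes are lowest in Old5.

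Among the members known from antennal hairs, Obp83a fell and the others did not pass the criteria. Obp83a (FBgn0011281) and its neighbour Obp83b, with no gene starting between them, are secreted together into the olfactory hairs that serve pheromone and food odour neurons. Obp83a was at 7.23, 6.95 and 7.01 in Old4, Old5 and Old6 and at 7.76, 8.67 and 8.16 in Young1, Young2 and Young3, so that the groups did not overlap. Its difference was -1.14 (SE 0.25, FDR 0.0523, limma), a 2.20-fold fall. Without Young2 it fell by 0.90 on the log2 scale, under the fold criterion, and the FDR rose to 0.170 without Old5 and 0.172 without Old6, so the call was lost in these 3 cases.

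Obp83b was at 5.55, 6.29 and 5.87 in old samples and at 5.60, 5.58 and 5.45 in young samples. Its difference of 0.36 (95% interval -0.16 to 0.88) had the opposite sign to that of Obp83a, and whether the differences of both genes differ from each other was not tested. Obp69a, an antennal protein linked to social responses, averaged 11.05 ± 0.16 in the old and 10.61 ± 0.38 in the young age group (difference 0.44, 95% interval -0.12 to 0.996). Obp84a, also of the antenna, averaged 9.51 ± 0.13 and 9.36 ± 0.04 in the old and the young age group.

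The 3 higher members, Obp49a, Obp18a and Obp56h, are all on the list of Obp genes placed here with taste organs, among other sites. That list was written with earlier results of these data known, so the shared placement supports no statement about taste organs. Of the 16 probe sets of that list, 9 reached log2 4, 3 were called higher, 1 (Obp19c) was called lower and the other 5 were not called. Among all probe sets on the array reaching log2 4, 7.38% were called higher and 6.45% lower. Obp49a (FBgn0050052), which is secreted in taste hairs and dampens the response to sugar when bitter compounds are present, was at 12.15, 12.02 and 12.05 in old and at 10.79, 11.36 and 11.07 in young samples. The groups lay well apart. Its difference of 1.001 (SE 0.15, FDR 0.0186, limma) is a 2.001-fold rise that only just passed the fold criterion. Without Old4 it became 0.96 and without Young1 0.86, and with quantile normalization repeated 0.97, all under the criterion.

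Obp18a (FBgn0030985) was at 11.18, 11.23 and 11.55 in Old4, Old5 and Old6 and at 10.04, 9.83 and 10.08 in Young1, Young2 and Young3. Both groups were tight, with SDs of 0.20 and 0.13 in the old and the young age group. The difference of 1.34 (SE 0.13, FDR 0.00550, limma) is a 2.53-fold rise, and it was called under each of the 16 alternatives run.

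Obp56h (FBgn0034475), known for an influence on male mating and cuticular hydrocarbons, was the only member at the low end of the scale in young samples and above log2 4 in all old samples. It was at 4.57, 5.26 and 5.65 in Old4, Old5 and Old6 and at 2.23, 2.72 and 2.91 in Young1, Young2 and Young3. The difference was 2.54 (SE 0.34, FDR 0.0128, limma), a 5.82-fold rise as deposited. With values under log2 4 raised to 4 the difference was 1.16, and with values under log2 6 raised to 6 no difference is left, since none of its values reached log2 6.

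The other Obp56 members with signal outside the male tract list were not called. Obp56d, found in both antennae and taste organs, averaged 13.23 ± 0.07 in the old and 13.04 ± 0.19 in the young age group (difference 0.19, 95% interval -0.09 to 0.47). Obp56a averaged 10.30 ± 0.42 in the old and 10.39 ± 0.22 in the young age group. Its difference was -0.09 (95% interval -0.74 to 0.56), with a sign that turned without Old5 or Young3.

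Of the 7 Obp genes listed as components of seminal fluid or the male tract, Obp8a, Obp22a, Obp51a, Obp56f and Obp56i lay between 1.99 and 2.58 in all samples, beside the male accessory gland markers given above. The others, Obp56e and Obp56g, were above that range. Obp56e was at 6.31, 4.34 and 6.28 in Old4, Old5 and Old6 and at 6.66, 8.01 and 7.57 in Young1, Young2 and Young3. Every old sample was below every young sample, yet the difference of -1.77 (95% interval -3.57 to 0.03) missed the criteria with an FDR of 0.216 in limma. It passed when dim probe sets were left out of the fit (FDR 0.0908 with those reaching log2 4 alone), and it was -1.12 without Old5.

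Obp56g was at 6.40, 5.30 and 6.57 in old samples and at 6.17, 6.73 and 6.45 in young samples. Its difference of -0.36 (95% interval -1.37 to 0.65) became 0.04 without Old5. Old5 was also the lowest sample for CheA75a, CheA7a and CheA87a, which belong to a family of secreted proteins tied to pheromone sensing: they were at 4.20, 2.45 and 6.62 in Old5, against 6.79, 4.30 and 8.27 in Old4 and 6.38, 3.79 and 8.15 in Old6. These 3 genes are from the list of 31 probe sets for other carriers, counted below, which was not low in Old5 as a whole. Over its 15 probe sets reaching log2 4, the median was 9.74, 10.81 and 10.79 in Old4, Old5 and Old6. Whether the low values of Obp56e, Obp56g and the 3 CheA genes share a source was not tested.

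The Obp57 members, known from taste hairs, were bright in both groups. Obp57a averaged 12.67 ± 0.08 in the old and 12.59 ± 0.14 in the young age group (difference 0.08, 95% interval -0.14 to 0.30). Obp57c by its own probe set was at 10.96, 10.69 and 11.08 in old and at 11.05, 11.38 and 11.40 in young samples, with a difference of -0.37 (95% interval -0.75 to 0.01). The probe set listed for both Obp57b and Obp57c was at 10.66, 10.56 and 10.69 in old and at 10.96, 11.20 and 11.35 in young samples. Its groups did not overlap, and its difference of -0.53 (SE 0.11, FDR 0.0432, limma) is a 1.45-fold fall, under the fold criterion. Obp57c, Obp57b and Obp57a follow each other directly in RefSeq's annotation, and all 3 probe sets of this run differed by less than 2-fold between the group means. Obp57d and Obp57e, further along, were dim.

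**Figure D4:**
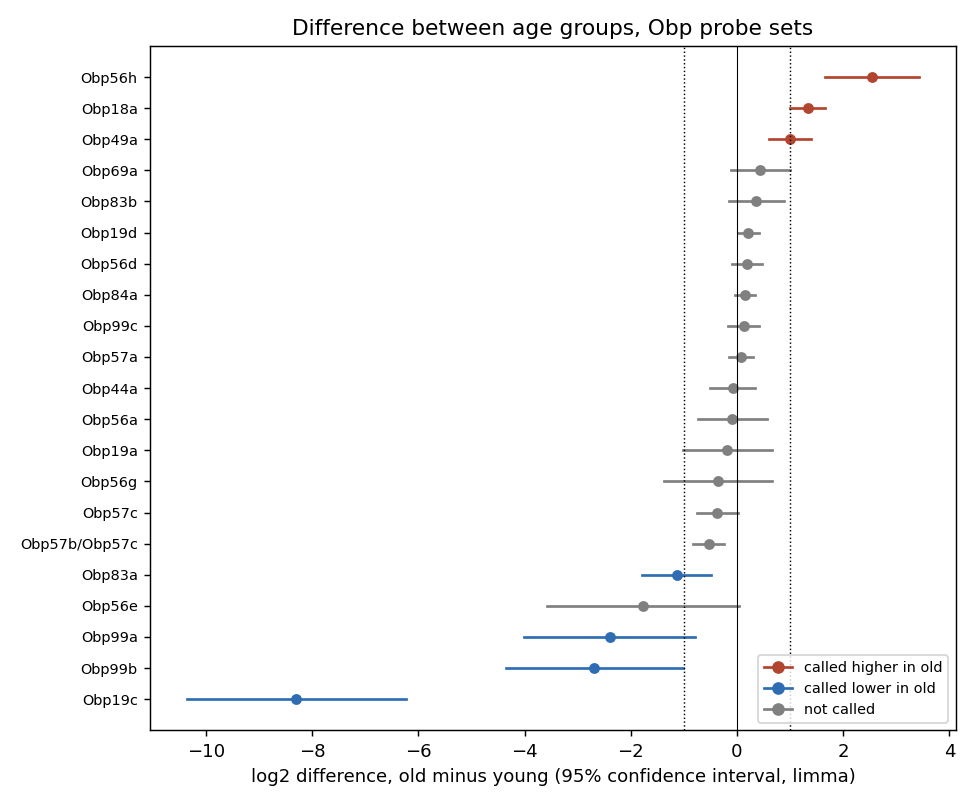
Differences between the age groups (old minus young, log2, horizontal axis) for the 21 Obp probe sets that reached log2 4 (rows); points are limma estimates, bars are 95% confidence intervals, red marks probe sets called higher in old flies and blue those called lower, and dotted lines mark a 2-fold difference. The intervals of 11 of the 14 uncalled probe sets lie within the dotted lines, and those of Obp56e, Obp56g and Obp19a cross the lower one.

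Of the 14 bright probe sets that were not called, 13 differed by less than 1 on the log2 scale, and in 11 the whole 95% interval lay between -1 and 1. For Obp56e, Obp56g and Obp19a, a 2-fold fall is within the interval, and a lack of change cannot be read from the missed criteria.

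Other genes, placed here with chemical sensing from general knowledge, were counted for comparison. Whether each of them, the Npc2 genes included, serves chemical sensing was not tested. Of 67 odorant receptor probe sets, none was called, and the only one above log2 4 was Or43b, with a difference of 0.00. Of 62 ionotropic receptor probe sets 3 reached the level, and 2 were called. Ir76a was at 10.29, 10.54 and 10.44 in old and at 9.44, 9.53 and 8.62 in young samples (difference 1.23, FDR 0.0527, limma). Its probe set is, by its suffix, of a type whose probes can match more than 1 gene. The uncalled probe set of the 3 is listed for both Iml1 and Ir62a. Ir7c was at 5.74, 2.37 and 2.39 in old and at 10.69, 10.42 and 10.50 in young samples (difference -7.04, FDR 0.0155, limma), so that its old values also ran into the range of the dim probe sets. Of 67 gustatory receptor probe sets 1 was called, Gr98a, which was higher in the old age group and stayed at 4.52 or lower. Of 31 probe sets for other soluble or membrane carriers, such as CheA, CheB and Npc2 proteins, 15 reached the level, 4 were called higher (Snmp1, Phk-3, Npc2e and Npc2h) and 5 lower (Os-C, Est-6, CheA7a, Npc2d and Npc2f). Over all probe sets tested, 3.45% were called higher and 2.96% lower. Among those reaching log2 4, the shares were 7.38% and 6.45%. The lists were written with earlier results of these data known, so these counts are a description only.

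Among these carriers, Snmp1, a membrane protein that olfactory neurons need to detect a male pheromone, was at 9.74, 10.81 and 9.83 in old and at 5.39, 5.22 and 4.97 in young samples, a difference of 4.94 (FDR 0.00259, limma). Os-C, a secreted protein of the antenna, was at 5.70, 4.92 and 5.59 in old and at 7.04, 7.60 and 6.46 in young samples, a difference of -1.62 (FDR 0.0581, limma). Est-6, an esterase of the antenna and the ejaculatory duct, fell by 1.19 on the log2 scale, while Gld, the other gene of the ejaculatory list, was not called. Carriers outside the Obp family were thus also called in both directions, while nearly all receptor probe sets stayed at the low end of the scale.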

How the data were processed

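Whole-fly RNA of 3 samples per age group was amplified and hybridized to Affymetrix GeneChip Drosophila Genome arrays. Per the submitters' processing notes and the methods, the authors applied GCRMA in Partek 6.5 and deposited log2 values, 1 per probe set and sample, with no release of the annotation. The scans were not analysed here, so background correction could not be varied. After 183 control probe sets were left out, 18769 were fitted in R 4.3.3 with limma 3.58.1 and age group as the only term. The 3 call criteria are those of the methods. SAM, which they name, was not installed and was not run, and the two-sided equal-variance t-test was run as an alternative. Precision is limited by the number of arrays. All Obp probe sets reaching log2 4 are named with values, and the rest by their range. Of other genes, those called or on which a result turns are named. Fits were tested on simulated data first. All 51 Obp symbols matched RefSeq's Release 6 table, which was used for gene order alone, as the files name no build. Members, gene lists, roles and alternatives were chosen with earlier results of these data known. The lists were written from general knowledge.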

Additional observations from a re-analysis of the deposited data

How the results depend on the processing

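No paired analysis was possible because the columns of the old age group carry numbers that no label gives, although samples of a replicate may share a culture. Leaving out each sample in turn left between 2 and 3 Obp probe sets called higher and between 2 (without Old5) and 3 called lower. With an FDR under 0.05, only Obp19c was called lower (1 probe set, with 3 higher), and 7 probe sets were called in the receptor, carrier, accessory gland and ejaculatory lists (testis left out), against 12 in the reported fit. The methods' t-test called 3 higher and 4 lower by p and fold alone, and 3 and 3 after adjustment. With dim probe sets left out, Obp56e joined the lower calls (5). Values without 1 sample turned in sign for Obp19a (between -0.41 and 0.031), Obp56a (between -0.22 and 0.15), Obp56g (between -0.60 and 0.036) and Obp44a (between -0.25 and 0.054), none of them called. Calls of Obp99a, Obp83a and Obp49a were lost as given above, and Obp99b, Obp99a and Obp83a missed the stricter FDR. Differences below log2 4 depend on the treatment of low values.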
